A study of Arabidopsis thaliana with 54 samples.

Results

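NAC genes encode a plant-specific family of transcription factors. The genes described here are the rows of the expression table whose gene name is NAC or ANAC followed by a number, which gave 46 genes of 23997 rows. Of these, 20 had a mean of at least 1 FPKM (fragments per kilobase of transcript, scaled to library size) in at least 1 of the 18 groups and were tested together with all 10622 genes that met this minimum. The rule used no difference between groups, but a gene that met the minimum only in its highest groups had to vary, and 6 of the 20 met it in some groups only (NAC100, NAC019, NAC105, NAC098, NAC026 and NAC60). The other 26 genes stayed below it everywhere. The reference annotation names 100 family loci, of which the table holds 79, and 33 of those carry another kind of name there and fall outside the rule.

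RNA was taken from whole Arabidopsis thaliana seedlings exposed for 5, 30 or 180 min to guvermectin (GV, 10 µM), a nucleoside made by Streptomyces, or to 1 µM of a plant hormone. The hormones were the auxin indole-3-acetic acid (IAA), the cytokinin trans-zeatin (ZT), the brassinosteroid epibrassinolide (eBL) and gibberellin A3 (GA3), and untreated controls were sampled at the same times. Each of the 18 groups had 3 libraries, 54 in all. No genotype, transgene or seedling age is given in the sources used here. Whether replicate libraries were grown separately is not stated either, and p-values here reflect library spread alone, which may be technical. The GV dose was higher than the hormone doses, so sizes of change with GV and with a hormone are not at matched doses.

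A NAC protein binds DNA through a conserved amino-terminal NAC domain and regulates transcription through a variable carboxy-terminal region. Members control the response to drought and other stress, leaf senescence, the boundaries between organs, and the building of xylem vessels and fibres. Some carry a membrane anchor and reach the nucleus only after they are cut loose, and some boundary and growth genes of the family are cut by the microRNA miR164. In whole seedlings, fewer cells of a type and less RNA per cell cannot be told apart.

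The libraries implied 17.8 to 23.8 M reads, of which 27.3% to 41.9% fell in the genes of the table, and a gene of 1 kb gained 0.0421 to 0.0562 FPKM with each read. Counting error is therefore largest for the low NAC genes. Replicates correlated at 0.971 or above in 17 groups, while eBL 30 min replicate 3 reached only 0.867 with a library of its own group, so the eBL values at 30 min are set beside those without it for the genes described. Without it 8 of the 10 NAC calls of eBL against control at 30 min kept their direction and their call, and NAC010 and NAC098 did not. Group means of ZT, eBL and GA3 correlated with the control of the same time at 0.919 to 0.953 at 30 and 180 min, against 0.965 to 0.982 for GV and IAA. At 5 min ZT and GA3 were at 0.946 and 0.931 and eBL at 0.987. The labels give no batch for this difference. Its part in the results was not tested, and for the 6 groups at 30 and 180 min a second comparison set each of ZT, eBL and GA3 against the mean of the other 2. The table has no row with a mean between 10.5 and 344 FPKM. Several well-known members, such as ATAF1, RD26 and NAC055, are not analysed here.

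The sequences below are shown because 4 of the 46 genes carry a close match to the microRNA. Whether it cuts their transcripts was not measured. The mature miR164 sequences are given 5′ to 3′ from the TAIR10.1 genome and its RefSeq annotation, with the seed (bases 2 to 8) in capitals. MIR164a lies on chromosome 2, and MIR164b and MIR164c on chromosome 5, all on the plus strand. The miRNAs themselves were not measured.
MIR164a: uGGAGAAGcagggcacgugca
MIR164b: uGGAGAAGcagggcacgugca
MIR164c: uGGAGAAGcagggcacgugcg
All 3 share the seed, and the first 2 are identical. A search of 31346 annotated transcripts for sites with at most 4 mismatches to the full complement of miR164a found 13 genes, 4 of them among the 46. The others include family members that the table does not hold, such as AT1G56010 (NAC1) and the senescence regulator AT5G39610 (ORE1). The 4 sites are written 5′ to 3′ along the transcript, with bases that differ from the full complement in capitals, and all 4 lie in coding sequence. That of NAC079 is at chr5:2436958-2436978 on the plus strand and that of NAC100 at chr5:24701687-24701707 on the minus strand. The NAC054 site is at chr3:5111137-5111157 on the plus strand and the NAC098 site at chr5:21902301-21902321 on the minus strand.
NAC079: uUUacgugcccugcuucucca
NAC100: uCUacgugcccugcuucucca
NAC054: AgcacgugUccugUuucucca
NAC098: AgcacgugUccugUuucucca
NAC079 and NAC100 have 2 mismatches each, both near the 5′ end of the site, whereas NAC054 and NAC098 (CUC1 and CUC2) share an identical site with 3 mismatches.

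Levels of the 20 tested genes, which are comparable between genes because FPKM is per length, spanned a modest range. That range is bounded by the table, which has no row with a mean between 10.5 and 344 FPKM. It also holds only 79 of the 100 family loci, so the top level is not that of the whole family. NAC089 had the highest mean over all libraries, at 8.41 FPKM, followed closely by ANAC087 at 8.40, ANAC13 at 8.23 and NAC056 at 7.79. The next 8 genes, from NAC079 at 6.35 to NAC032 at 3.29 FPKM, include NAC029 at 5.30 and NAC001 at 4.65. NAC010 had a mean of 2.90 FPKM, NAC018 of 2.105, NAC100 of 1.44, NAC019 of 1.17 and NAC105 of 1.02, while NAC098, NAC026 and NAC60 averaged 0.87, 0.78 and 0.53 FPKM over all libraries. NAC019 varied most widely, from a group mean of 0.190 FPKM with GV at 30 min to 3.59 FPKM with GA3 at 30 min. NAC014, in contrast, kept group means from 3.71 to 6.03 FPKM.

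**Figure D1:**
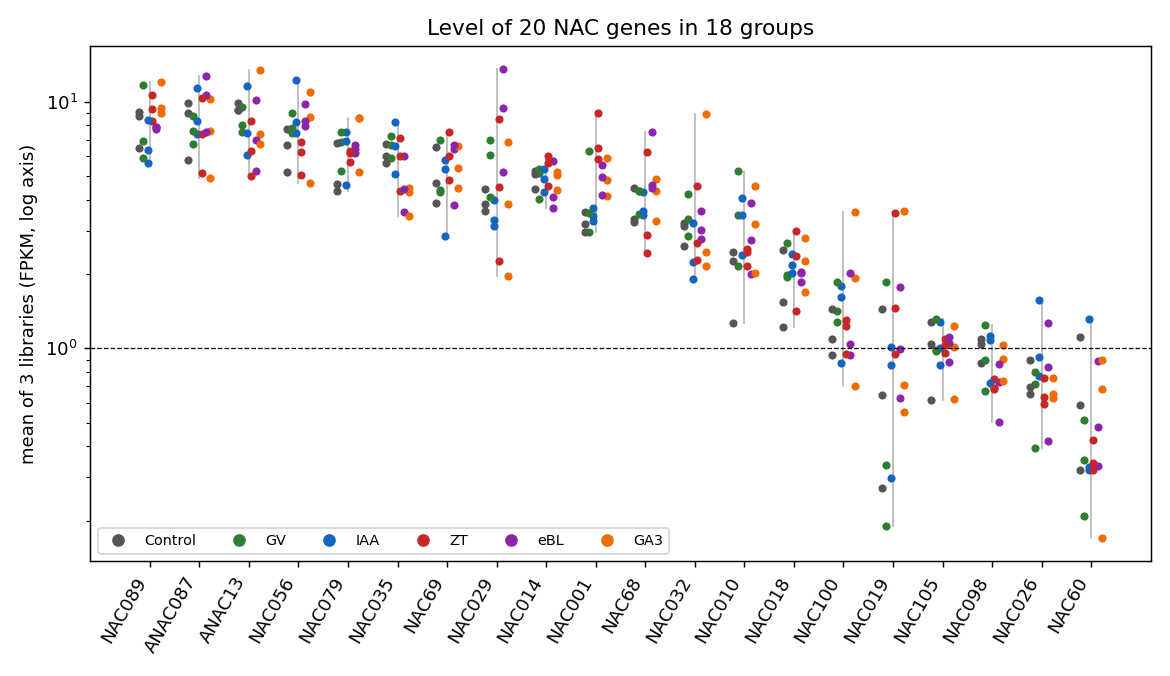
Level of the 20 tested NAC genes. Each point is the mean of 3 libraries of 1 group in FPKM on a log axis, coloured by compound, grey lines span the 18 groups and the dashed line marks 1 FPKM. NAC019, NAC60 and NAC029 have long lines, and NAC014 has a short one. Group means of NAC029 run from 1.96 to 13.5 FPKM, and those of the low gene NAC60 from 0.171 to 1.31 FPKM.

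The 26 genes below the minimum include most regulators of xylem vessels and fibres. The vessel regulators NAC037 (VND1), ANAC076 (VND2), NAC007 (VND4), NAC101 (VND6) and NAC030 (VND7) averaged 0.596, 0.510, 0.397, 0.329 and 0.0915 FPKM, and NAC104 (XND1), which holds back xylem formation, averaged 0.262 FPKM. The fibre regulators NAC043 (NST1) and NAC066 (NST2) averaged 0.00425 and 0.00146 FPKM. NAC012, known as NST3 or SND1, was listed at 0 in all 54 libraries, as were ANAC023 and ANAC093. Of the cotyledon boundary genes, NAC054 (CUC1) averaged 0.514 FPKM and NAC031 (CUC3) 0.172 FPKM. Of the 26 genes, 13 had a mean under 0.1 FPKM, and no test was made of any of them.

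Every one of the 20 tested genes differed from the control in at least 1 of the 15 comparisons of a compound with the untreated seedlings of the same time, at a Benjamini-Hochberg adjusted p under 0.05 in limma over all 10622 genes. There were 97 such calls among 300 tests, 67 higher and 30 lower than control. Calls in both directions were made for 10 genes, only higher for 8 and only lower for 2 (NAC098 and NAC60). The 6 genes that met the minimum in some groups only hold 15 of these calls. Of the 15, 11 set a group that met it against one that did not, so they are counted here but support nothing. All calls of NAC105, NAC098, NAC026 and NAC60 are among the 11. That all 20 genes were called, and that 2 were called only lower, therefore rests on such calls. The share of all genes called at least once in the 15 comparisons is not given here. The counts have to be read against the share of all genes that passed the same test.

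With GV at 5 min 4 of the 20 NAC genes were higher and 1 lower, beside 7.82% and 3.16% of all genes (11% in either direction). At 30 min 1 was higher and 0 lower, beside 1.51% and 3.48% (4.99% in either), and at 180 min 5 were higher and 2 lower, beside 5.59% and 3.58% (9.17% in either). With IAA at 5 min 2 were higher and 3 lower, beside 6.86% and 5.29% of all genes (12.2% in either). At 30 min 4 were higher and 1 lower, beside 7.16% and 2.66% (9.83% in either), and at 180 min 5 were higher and 1 lower, beside 11.2% and 6.48% (17.7% in either).

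With ZT at 5 min 5 were higher and 2 lower, beside 19.5% and 8.02% of all genes (27.5% in either direction). At 30 min 5 were higher and 3 lower, beside 19.1% and 19.5% (38.6% in either), and at 180 min 5 were higher and 2 lower, beside 17.1% and 24.7% (41.7% in either). With eBL at 5 min 2 were higher and 0 lower, beside 2.27% and 1.07% (3.34% in either). At 30 min 7 were higher and 3 lower, beside 23.1% and 20.6% (43.6% in either), and at 180 min 6 were higher and 3 lower, beside 16.2% and 21.8% (38% in either). With GA3 at 5 min 7 were higher and 3 lower, beside 23.7% and 11% (34.7% in either). At 30 min 5 were higher and 3 lower, beside 14.4% and 16.8% (31.2% in either), and at 180 min 4 were higher and 3 lower, beside 17.3% and 23.6% (41% in either).

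At 30 and 180 min with ZT, eBL and GA3, 35% to 50% of the NAC genes were called, a share near that of all genes. The median log2 change of the 20 genes lay between -0.12 (IAA at 5 min) and 0.22 (eBL at 30 min), and that of all genes between -0.07 and 0.08. All log2 changes are differences of mean log2(FPKM + 1), a scale that understates the change of low genes. Groups without overlap, given below for single genes, were common. Over the 15 comparisons with control, 20.4% (GV at 30 min) to 54.1% (ZT at 180 min) of all genes had them.

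Of the 49 calls with ZT, eBL and GA3 at 30 and 180 min, 23 were also called in the same direction against the mean of the other 2 of these compounds, 21 were not called and 5 were called in the opposite direction. Called in the same direction were 4 of 8 with ZT, 5 of 10 with eBL and 2 of 8 with GA3 at 30 min, and 4 of 7, 3 of 9 and 5 of 7 at 180 min. In these comparisons 31.6%, 41.9% and 19.2% of all genes were called at 30 min, and 38.4%, 22.3% and 28% at 180 min. The opposite calls were NAC019 with ZT at 30 min, NAC056 with ZT, NAC001 with eBL and GA3, and ANAC13 with GA3, all but the first at 180 min. A gene changed alike by all 3 compounds gives no call in this comparison.

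**Figure D2:**
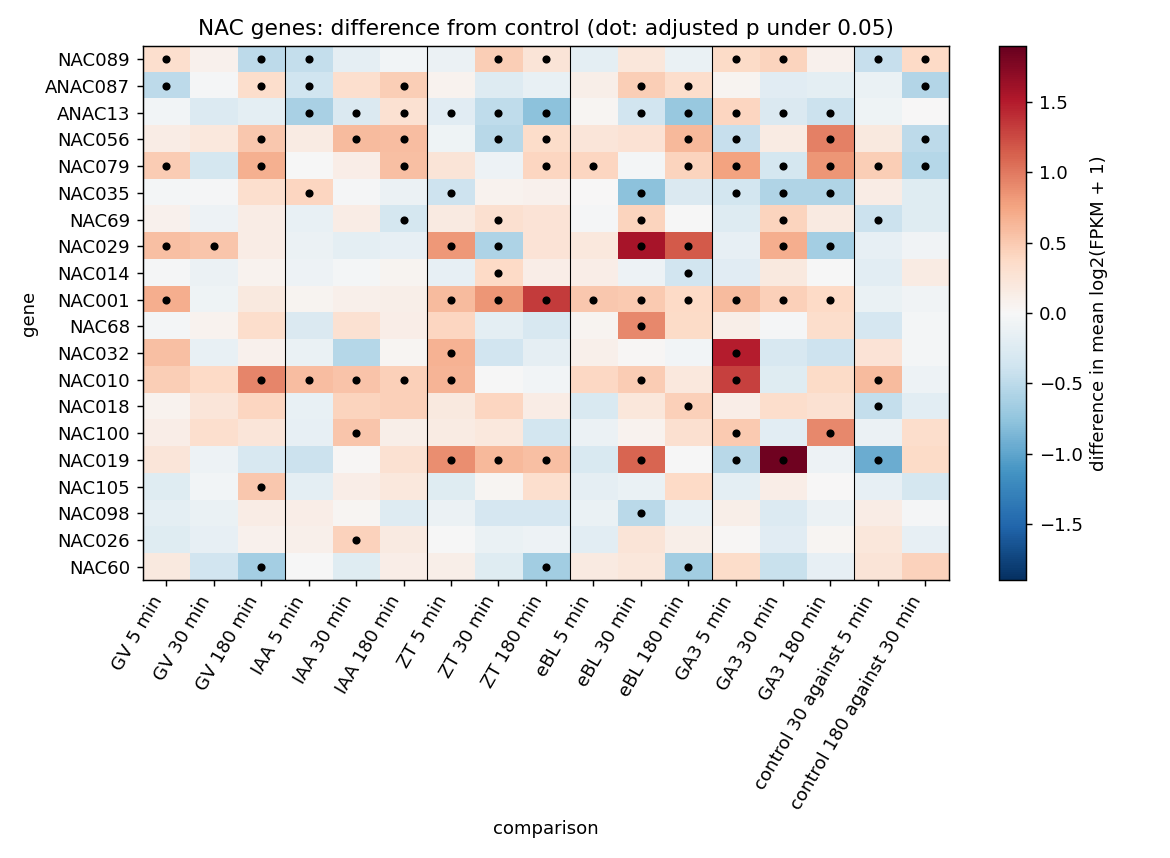
Difference from control of the 20 tested NAC genes, ordered by mean level. Colours give the difference in mean log2(FPKM + 1) of each compound from the control of the same time, and of the control between times in the last 2 columns, and dots mark an adjusted p under 0.05. NAC001 is higher across all ZT, eBL and GA3 columns, and the darkest cells are NAC019 with GA3 at 30 min (1.84) and NAC029 with eBL at 30 min (1.56).

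NAC019 and NAC032 belong to the stress clade of the family. NAC019 (AT1G52890, chr1:19696923-19698482, minus strand) acts in drought and jasmonate signalling, and NAC032 (AT1G77450, chr1:29099839-29101759, plus strand) is induced by several stresses. Their promoters, and that of the senescence regulator NAC029, are shown because all 3 carry the hexamer CACGTG, the core of the G-box and of abscisic acid response elements. Each run is the 250 bases before the annotated start, read 5′ to 3′ on the gene's strand in TAIR10.1, with the hexamer in capitals. The windows are chr1:19698483-19698732 on the minus strand, chr1:29099589-29099838 on the plus strand and chr1:26121830-26122079 on the plus strand.
NAC019: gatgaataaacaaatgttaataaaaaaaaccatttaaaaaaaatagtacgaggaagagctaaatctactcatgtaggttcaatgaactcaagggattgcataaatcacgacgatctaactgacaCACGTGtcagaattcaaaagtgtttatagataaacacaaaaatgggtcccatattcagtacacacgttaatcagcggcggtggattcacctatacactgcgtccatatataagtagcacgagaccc
NAC032: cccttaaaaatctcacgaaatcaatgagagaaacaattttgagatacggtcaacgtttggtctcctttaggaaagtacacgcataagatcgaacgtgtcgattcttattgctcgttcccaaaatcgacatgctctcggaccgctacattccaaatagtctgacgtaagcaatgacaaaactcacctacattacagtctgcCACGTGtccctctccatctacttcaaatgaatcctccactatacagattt
NAC029: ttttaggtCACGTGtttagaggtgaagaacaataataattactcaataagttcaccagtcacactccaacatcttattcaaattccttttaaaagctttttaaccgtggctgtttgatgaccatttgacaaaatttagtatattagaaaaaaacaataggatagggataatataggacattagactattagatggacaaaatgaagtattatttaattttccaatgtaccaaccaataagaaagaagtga
The hexamer begins 126, 50 and 242 bases before the start in NAC019, NAC032 and NAC029. Over windows of 300 bases (250 before to 50 after the start), 5 of the 20 tested genes held CACGTG, the others being NAC014 and NAC69, and 7.68% of 27443 promoters did. Of several motifs searched in these windows, it is the one found in the most tested genes. The rest were each in 1 or 2 of the 20, and in 1.42% to 32.4% of promoters. It reads the same on both strands. A match is a description of the letters and not a binding site.

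At 5 min after ZT, NAC019 stood above every control library. Its ZT libraries at 5 min read 2.95, 4.14 and 3.52 FPKM and the controls 1.25, 1.52 and 1.55 FPKM. The groups did not overlap, and the log2 change was 0.89 ± 0.16 (SE; adjusted p = 2.25e-05, higher in 3 of 3 libraries). ZT also raised it at 30 min, by 0.61 (adjusted p = 0.00208), and at 180 min, by 0.58 (adjusted p = 0.0031). At 30 min both means lay below the minimum of 1 FPKM, at 0.952 FPKM with ZT and 0.273 FPKM in the control, so this change is a description.

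GA3 gave NAC019 its largest change, and in opposite directions at 5 and 30 min. GA3 libraries at 5 min read 0.473, 0.669 and 0.991 FPKM, all below the controls, a log2 change of -0.52 (adjusted p = 0.00929). At 30 min they read 3.19, 4.31 and 3.28 FPKM against 0.220, 0.237 and 0.361 FPKM in the controls, and the groups lay far apart. That log2 change was 1.84 ± 0.16 (adjusted p = 2.58e-12). The difference between the changes at 30 and 5 min, tested as an interaction, was 2.36 (adjusted p = 1.58e-11), while the call at 5 min was lost without GA3 replicate 1 (adjusted p = 0.0717). NAC019 lay below 5 FPKM in every group and was picked for these values after they were seen. It met the minimum of 1 FPKM in some groups only. Its changes with GA3 at 5 and 30 min, eBL at 30 min and ZT at 180 min set a group that met it against one that did not. Those changes, and the interaction that rests on them, are a description and support nothing.

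Epibrassinolide raised NAC019 at 30 min as well, with libraries at 1.96, 2.196 and 1.15 FPKM, all above the controls. The log2 change was 1.10 ± 0.16 (adjusted p = 3.55e-07), and 1.28 without the library that stood apart. Against the mean of the other 2 of ZT, eBL and GA3 at 30 min, NAC019 was higher with GA3 by 0.99 (adjusted p = 8.13e-07) and lower with ZT by a log2 change of -0.86 (adjusted p = 3.47e-06), and eBL gave no call (-0.13, adjusted p = 0.488). At 180 min ZT was higher by 0.64 (adjusted p = 0.000258). With GV and IAA no NAC019 comparison with control passed the test. In the controls themselves NAC019 fell from 1.44 ± 0.168 FPKM (SD, n = 3) at 5 min to 0.273 ± 0.0769 FPKM at 30 min, a log2 change of -0.94 (adjusted p = 1.15e-05 in limma), so the changes at 30 min are set against a low control.

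NAC032 had its largest change with GA3 at 5 min. Its GA3 libraries at 5 min read 9.63, 7.80 and 9.29 FPKM, against 1.62, 3.39 and 2.77 FPKM in the controls and 1.41 to 4.84 FPKM in all other libraries of the study. No other group reached this level, and the log2 change was 1.49 ± 0.199 (adjusted p = 5.49e-08). By 30 min the GA3 libraries had returned to 1.78, 2.36 and 3.26 FPKM, without a call. ZT raised NAC032 at 5 min by 0.66 (adjusted p = 0.00978), a call that was lost without control replicate 1 (adjusted p = 0.132).

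Touch and wounding genes moved with several of these rises. Of a list of 8, 4 were tested, and all 4 were higher with ZT at 5 min (19.5% of all genes), WRKY53 by 1.95 and CML37 by 1.49 on the log2 scale. With eBL at 30 min 3 were higher and 1 lower (23.1% and 20.6% of all genes), and all 4 calls remained without eBL replicate 3, CML37 at 1.22 and WRKY40 at -0.62. With GA3 2 were higher at 5 min and 3 at 30 min (23.7% and 14.4% of all genes). With GV at 5 min 2 were higher (7.82% of all genes), CML37 by 1.05 and WRKY53 by 0.69, and with ZT at 30 min 1 was lower (19.5%). Their summed level was 29.8 to 34.0 FPKM with ZT at 5 min and 13.7 to 16.8 FPKM in the controls. At 30 min it was 28.2 to 28.7 FPKM with GA3, 21.6 to 24.5 FPKM with eBL and 13.3 to 13.9 FPKM in the controls, and CML37 was at 0 in 3 of the 54 libraries. CML37 averaged 0.596 FPKM over all libraries, so it met the minimum of 1 FPKM in some groups only. Its changes and its place in these counts are a description. The part of the touch and wounding genes in the NAC changes was not tested.

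NAC029 (AT1G69490, chr1:26122080-26123514, plus strand), also called NAP, is an activator of leaf senescence. Brassinosteroid raised it most. Libraries with eBL at 30 min read 11.8, 11.6 and 17.2 FPKM, and the controls 3.78, 3.79 and 3.92 FPKM. The log2 change was 1.56 ± 0.146 (adjusted p = 9.32e-12), and 1.39 without eBL replicate 3, which was the highest library. At 180 min the eBL libraries were still at 10.11, 8.89 and 9.17 FPKM against 3.55, 3.54 and 3.73 FPKM, a log2 change of 1.17 (adjusted p = 1.79e-08). The eBL excess over the mean of ZT and GA3 was 1.51 at 30 min (1.34 without eBL replicate 3) and 1.36 at 180 min (adjusted p = 6.82e-13 and 1.71e-11).

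Cytokinin and gibberellin moved NAC029 first one way and then the other. ZT at 5 min gave 9.01, 9.14 and 7.41 FPKM against 3.75, 4.41 and 5.05 FPKM in the controls, a rise of 0.82 ± 0.146 on the log2 scale (adjusted p = 1.9e-05). At 30 min the ZT libraries had fallen to 2.79, 2.52 and 1.47 FPKM, all below the controls, with a log2 change of -0.59 (adjusted p = 0.00124). The difference between the changes, tested as an interaction, was -1.41 (adjusted p = 4.27e-07). GA3 did so later, with a called interaction of -1.33 between 180 and 30 min (adjusted p = 2.84e-06). Its libraries were above the controls at 30 min, at 7.01, 7.66 and 5.82 FPKM (log2 change 0.69, adjusted p = 0.000281), and below them at 180 min, at 2.28, 1.67 and 1.94 FPKM (log2 change -0.64, adjusted p = 0.000437). In the comparison within ZT, eBL and GA3, ZT at 30 min was lower by -1.72 (adjusted p = 1.15e-14) and GA3 at 180 min by -1.36 (adjusted p = 1.18e-11), and GA3 at 30 min gave no call (0.20, adjusted p = 0.278).

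Guvermectin raised NAC029 at 5 min, to 7.50, 6.47 and 6.94 FPKM. All 3 libraries lay above the controls, and the log2 change was 0.57 ± 0.146 (adjusted p = 0.00613), although without control replicate 1 the adjusted p was 0.0617. NAC029 was also the one NAC gene called with GV at 30 min, at 6.15, 4.86 and 7.14 FPKM, by 0.53 (adjusted p = 0.0203). Leaving out any of 5 of the 6 libraries compared ended that call, with an adjusted p of up to 0.156 without GV replicate 3. GV and ZT, compared directly at 5 min, gave means of 6.97 and 8.52 FPKM and no call for NAC029 (log2 difference -0.25 ± 0.146, adjusted p = 0.278), and at 30 min GV was higher by 1.12 (adjusted p = 3.68e-08). NAC029 did not pass the test with IAA at any time.

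ANAC087 (AT5G18270, chr5:6040919-6043014, minus strand) acts with ANAC046 in senescence and in the programmed death of root cap cells. GV lowered it at 5 min, to 7.51, 6.71 and 5.93 FPKM against 11.0, 9.80 and 8.73 FPKM in the controls, which did not overlap (log2 change -0.49 ± 0.112, adjusted p = 0.0016). eBL raised it at 30 min, to 11.6, 13.9 and 12.5 FPKM against 9.56, 7.72 and 9.55 FPKM (log2 change 0.46, adjusted p = 0.000834, and 0.47 without eBL replicate 3). That call was lost after quantile normalization (adjusted p = 0.0517) and in a fit of the 6 compared libraries alone (adjusted p = 0.0879), and against the mean of ZT and GA3 eBL was higher by 0.69 at 30 min and 0.51 at 180 min (adjusted p = 2.28e-07 and 7.95e-05). At 180 min the control itself had fallen to 4.55, 6.15 and 6.72 FPKM, a log2 change of -0.56 from 30 min (adjusted p = 0.000237), and GV, IAA and eBL stood above it by 0.34, 0.46 and 0.34. All 3 of these late calls were lost without control 180 min replicate 1, its lowest library, with adjusted p-values of 0.381, 0.054 and 0.193. With IAA at 5 min the change was -0.38 (adjusted p = 0.0167), with overlapping groups, and it was lost without IAA replicate 2 (adjusted p = 0.197), among others.

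**Figure D3:**
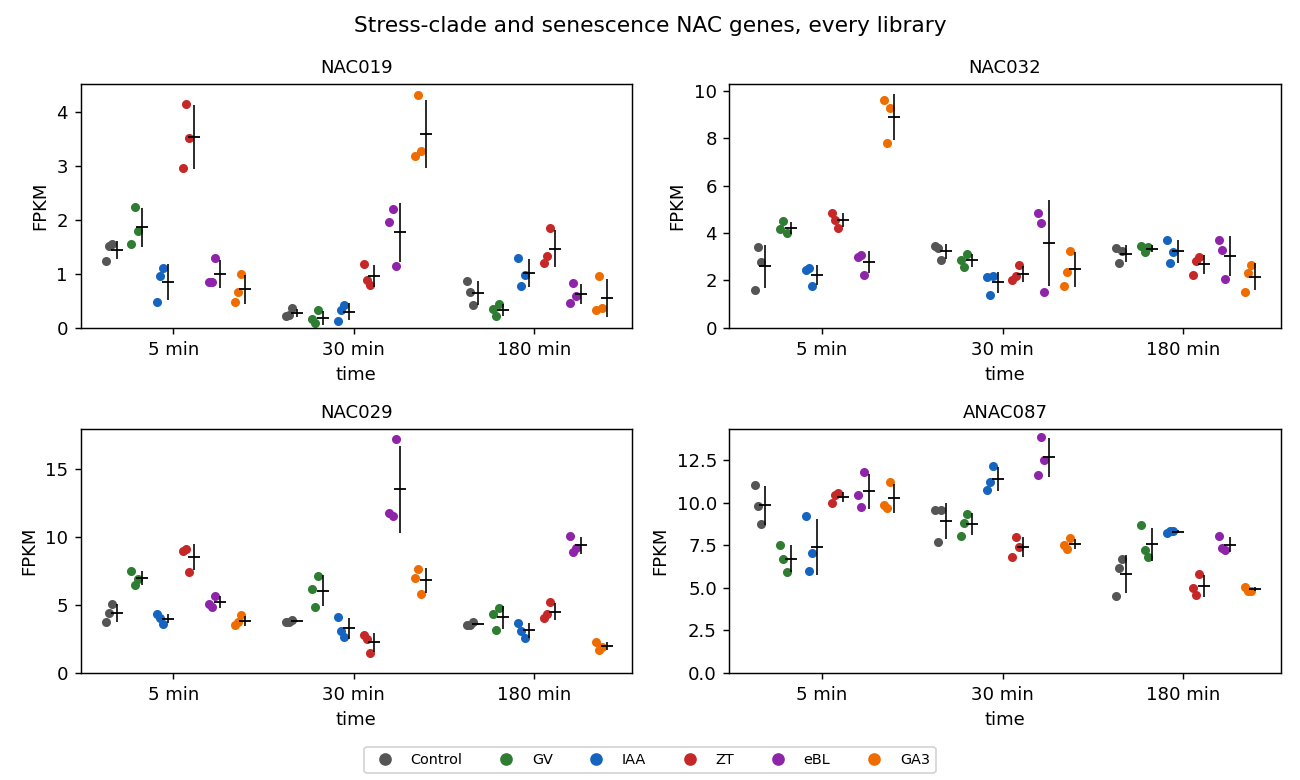
FPKM of NAC019, NAC032, NAC029 and ANAC087 in all 54 libraries by time, coloured by compound, with black bars for the mean and SD of 3 libraries. GA3 libraries of NAC019 stand out at 30 min and of NAC032 at 5 min (7.80 to 9.63 FPKM), and eBL libraries of NAC029 at 30 and 180 min.

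Of a list of 9 senescence regulators of the family, 5 were tested: NAC029, ANAC087 and 3 that the table names otherwise (anac016, anac046 and JUB1). Of these 5, 4 were higher with eBL at 30 min and none lower (23.1% and 20.6% of all genes), also without eBL replicate 3. At 180 min 3 were higher and none lower with eBL (16.2% and 21.8% of all genes) and with IAA (11.2% and 6.48%). Members also fell. With ZT at 30 min NAC029 and anac046 were lower and anac016 higher (19.5% and 19.1% of all genes). With IAA at 5 min anac016 and ANAC087 were lower (5.29% of all genes). With GV at 5 min 1 member was lower (3.16% of all genes), and with GA3 1 was lower at each time (11%, 16.8% and 23.6%). JUB1, which delays senescence, was higher with GV, ZT and GA3 at 5 min by 1.17, 1.43 and 1.18, and with eBL at 30 min by 1.62 (1.41 without eBL replicate 3). JUB1 averaged 0.689 FPKM over all libraries, so it met the minimum of 1 FPKM in some groups only. Its changes and its place in these counts are a description and support nothing. Among senescence and chlorophyll loss genes, 2 of a list of 7 were tested. SGR1, which starts chlorophyll breakdown, was lower with GA3 at 180 min by a log2 change of -1.09 and with eBL at 180 min by -0.61. Its log2 change of -0.39 with eBL at 30 min was lost without eBL replicate 3 (-0.14, adjusted p = 0.268). ENDO1, a nuclease of senescing tissue known as BFN1, was higher with eBL at 30 min by 0.84 (0.49 without eBL replicate 3) and with GV at 180 min by 0.78. ENDO1 averaged 0.991 FPKM over all libraries, so it too met the minimum in some groups only.

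Several NAC proteins are held in membranes by a tail anchor. Of this group NAC001 (AT1G01010, chr1:3631-5899, plus strand) was higher than control in 10 of 15 comparisons and lower in none, and ANAC13 was higher in 2 and lower in 9. With ZT the NAC001 values were 5.55, 5.69 and 6.25 FPKM at 5 min, 7.53, 6.11 and 5.74 FPKM at 30 min and 8.33, 8.61 and 9.99 FPKM at 180 min. The controls read 3.69, 2.73 and 4.28 FPKM, then 3.69, 2.39 and 3.52 FPKM, then 2.66, 2.99 and 3.25 FPKM, and no ZT library overlapped them. The log2 changes were 0.59, 0.84 and 1.33 (SE 0.141, adjusted p = 0.000993, 6.18e-06 and 2.27e-10). The ZT excess over the mean of eBL and GA3 was 0.36 at 30 min (adjusted p = 0.0217, and 0.0572 without eBL replicate 3) and 0.95 at 180 min (adjusted p = 1.99e-08).

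GA3 raised NAC001 at 5 min by 0.60 (adjusted p = 0.000656), and GV at 5 min by 0.69 (adjusted p = 0.000485), with GV libraries at 5.59, 7.11 and 6.19 FPKM. GV gave no call at 30 and 180 min, with means of 2.95 and 3.55 FPKM beside 3.20 and 2.97 FPKM in the controls. With IAA it was not called at any time, with group means of 3.27 to 3.69 FPKM. The eBL rises of 0.51, 0.50 and 0.38 and the later GA3 rises of 0.46 and 0.37 were called as well. Without eBL replicate 3 the rise at 30 min was 0.62, and with the 6 compared libraries alone it was lost (adjusted p = 0.166). Within ZT, eBL and GA3, each set against the mean of the other 2, eBL and GA3 were lower at 180 min by -0.47 and -0.48 (adjusted p = 0.00309 and 0.00219) and gave no call at 30 min (-0.15 and -0.21). Each of these 5 calls was lost without at least 1 library, the highest adjusted p being 0.256 for eBL at 5 min without control replicate 2, 0.0622 at 30 min without control replicate 2 and 0.164 at 180 min without eBL replicate 1. For GA3 they were 0.133 at 30 min without control replicate 2 and 0.141 at 180 min without GA3 replicate 3.

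ANAC13 (AT1G32870, chr1:11911631-11913947, plus strand) is an anchored factor that moves signals of mitochondrial stress to the nucleus. Auxin first lowered and then raised it. IAA libraries read 6.93, 5.43 and 5.93 FPKM at 5 min against 9.90, 10.2 and 9.48 FPKM in the controls, and 12.1, 11.8 and 10.9 FPKM at 180 min against 8.89, 9.17 and 9.78 FPKM. Neither pair of groups overlapped, with log2 changes of -0.62 ± 0.0825 (adjusted p = 3.05e-07) and 0.29 ± 0.0825 (adjusted p = 0.00805). The later rise missed the threshold after quantile normalization (adjusted p = 0.0615). The change at 30 min, -0.27, was lost without control replicate 3 (adjusted p = 0.191), among others.

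With GA3 ANAC13 rose at 5 min, to 13.4, 12.5 and 14.3 FPKM (log2 change 0.41, adjusted p = 0.000112), and at 180 min it was below control, at 6.85, 7.02 and 6.36 FPKM (log2 change -0.41, adjusted p = 9.05e-05). ZT and eBL lowered it. At 180 min the ZT libraries read 4.76, 5.95 and 4.31 FPKM and the eBL libraries 5.09, 5.62 and 4.96 FPKM, all below the controls, with log2 changes of -0.78 and -0.72 (adjusted p = 1.88e-10 and 2.13e-09). At 30 min they were -0.48 with ZT (adjusted p = 7.15e-06) and -0.36 with eBL (adjusted p = 0.000467, and -0.33 without eBL replicate 3, but lost in a fit of the 6 compared libraries alone, adjusted p = 0.123), and -0.28 with GA3, which was lost without control replicate 3 (adjusted p = 0.0813). Against the mean of eBL and GA3, ZT at 180 min was lower by a log2 change of -0.22 (adjusted p = 0.0139), while GA3 against the mean of ZT and eBL was higher by 0.35 (adjusted p = 0.000193), opposite to its change from the control. In the same kind of comparison eBL gave no call at 180 min (-0.13, adjusted p = 0.213), nor did ZT, eBL and GA3 at 30 min (-0.17, 0.02 and 0.15, adjusted p = 0.0701, 0.837 and 0.154). ANAC13 overlaps AT1G32880 on the opposite strand by 20 bases.

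Genes of the mitochondrial stress response, listed as likely targets of ANAC13 and its relatives, were counted beside it. Of 7 listed, 4 were tested: UGT74E2, CYP81D8, HSR4 and NDB2. With IAA 3 of the 4 were lower at 5 min (5.29% of all genes), UGT74E2 by -2.85 and CYP81D8 by -1.50. All 4 were higher with IAA at 180 min (11.2% of all genes) by 0.67 to 1.45, where the median was 1.13 beside 0.05 over all genes. With GA3 3 were higher at 5 min and 2 lower at 180 min (23.7% and 23.6% of all genes). With ZT and eBL at 180 min 2 and 3 were lower (24.7% and 21.8% of all genes), UGT74E2 by -2.50 and -2.02. With GV and ZT at 30 min 3 were lower (3.48% and 19.5% of all genes), and ANAC13 was not called with GV at 30 min.

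NAC089 (AT5G22290, chr5:7375839-7377776, minus strand), an anchored factor that promotes cell death under stress of the endoplasmic reticulum, also differed in direction between compounds. GV at 180 min lowered it to 5.52, 5.59 and 6.68 FPKM against 8.23, 9.13 and 8.89 FPKM in the controls (log2 change -0.50 ± 0.101, adjusted p = 0.000591). IAA at 5 min gave 6.99, 5.84 and 6.34 FPKM against 9.50, 8.97 and 8.84 FPKM, a log2 change of -0.45 (adjusted p = 0.00132). Neither of these comparisons showed overlap. GA3 raised it at 5 and 30 min by 0.36 and 0.42 (adjusted p = 0.00428 and 0.00129), and ZT at 30 min by 0.46 (adjusted p = 0.000303). Neither was called at 30 min against the mean of the other 2 of ZT, eBL and GA3 (0.08 with GA3, adjusted p = 0.575, and 0.14 with ZT, adjusted p = 0.218). The GV rise at 5 min of 0.32 was lost without GV replicate 3 (adjusted p = 0.157) and the ZT rise at 180 min of 0.25 without ZT replicate 3 (adjusted p = 0.156), each among others.

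NAC68 (NTM1, a regulator of cell division linked to cytokinin) and NAC69 are anchored neighbours on chromosome 4, 1072 bases apart. NAC68 was called with eBL at 30 min alone, where its libraries read 5.27, 5.82 and 11.5 FPKM against 4.08, 2.77 and 3.21 FPKM. All 3 lay above the controls, with a log2 change of 0.91 ± 0.166 (adjusted p = 2.07e-05), but the highest value came from the library that stood apart, and without it the change was 0.60 (adjusted p = 0.00149). In a fit of the 6 compared libraries alone the adjusted p was 0.102, and against the mean of ZT and GA3 eBL was higher by 1.01 (0.70 without eBL replicate 3). NAC68 is 96.0% identical to AT4G01520 over 898 bases. That copy averaged 0.00101 FPKM over all libraries, beside 4.18 FPKM for NAC68. How reads that match both genes were counted is not stated, so the level of NAC68 is uncertain. NAC69 was higher at 30 min with GA3 by 0.43 (adjusted p = 0.00319) and with eBL by 0.42 (0.48 without eBL replicate 3), with means of 6.63 FPKM in both beside 4.69 FPKM in the control. The eBL call was lost in a fit of the 6 compared libraries alone (adjusted p = 0.144), and against the mean of the other 2 of ZT, eBL and GA3 neither was called (0.06 with GA3 and 0.05 with eBL, adjusted p = 0.698 and 0.702). Its rise of 0.31 with ZT at 30 min was lost without control replicate 1 (adjusted p = 0.122), and its log2 change of -0.33 with IAA at 180 min was lost without control replicate 2 (adjusted p = 0.203), among others.

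NAC014 was higher with ZT at 30 min, at a mean of 6.03 ± 0.506 FPKM (SD, n = 3) against 4.42 ± 0.263 FPKM (log2 change 0.37, adjusted p = 0.00617 in limma). It was lower with eBL at 180 min by a log2 change of -0.36, a call lost without control replicate 1 (adjusted p = 0.0604). NAC60, which has a role in sugar and abscisic acid sensitivity, met the minimum of 1 FPKM only in the control and with IAA at 180 min, at means of 1.11 and 1.31 FPKM. The control libraries read 1.30, 1.01 and 1.03 FPKM, and the means with GV, ZT and eBL at that time were 0.352, 0.343 and 0.332 FPKM. These values are a description, since the high control is what brought the gene into the test.

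**Figure D4:**
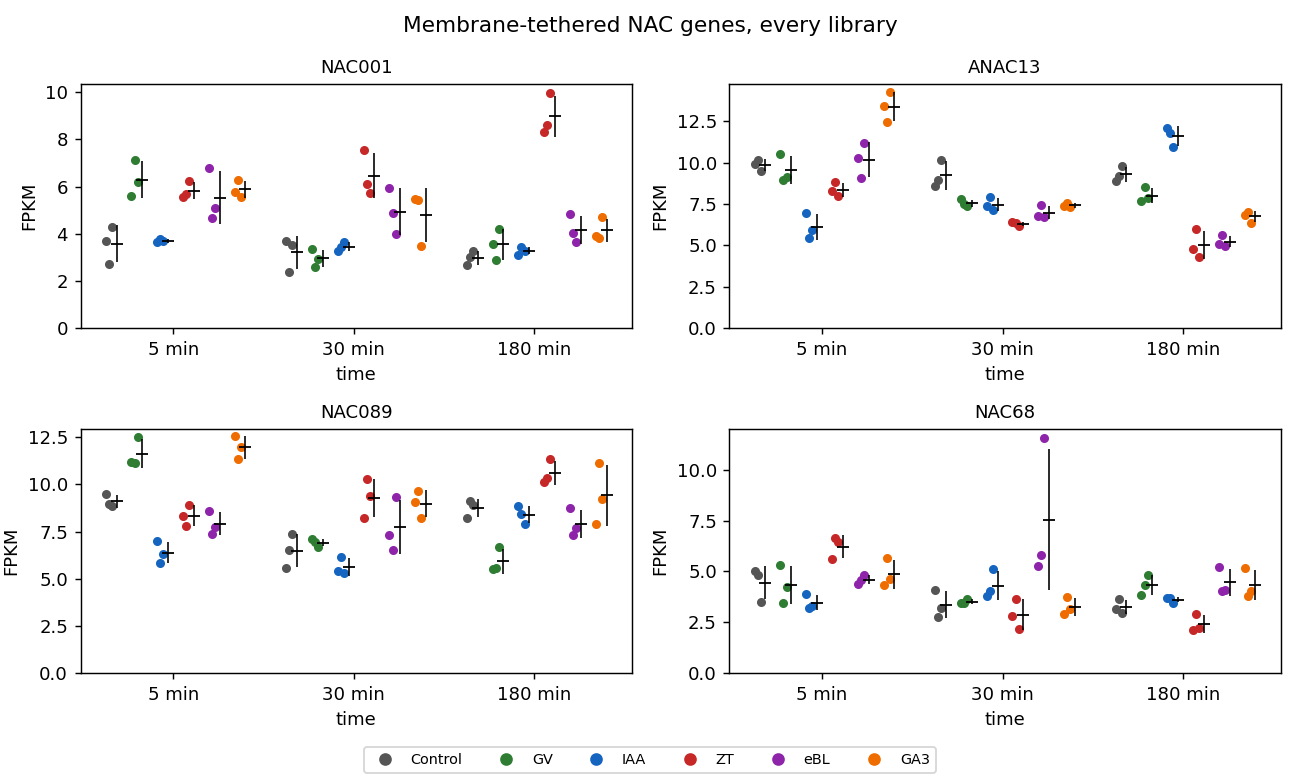
FPKM of the membrane-anchored NAC001, ANAC13, NAC089 and NAC68 in all 54 libraries by time, coloured by compound, with black bars for the mean and SD of 3 libraries. ZT libraries of NAC001 lie above the controls at all 3 times, IAA libraries of ANAC13 lie below them at 5 min and above at 180 min, and 1 eBL library of NAC68 reaches 11.5 FPKM.

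A list of 14 anchored family members had 9 tested, 7 of them by the naming rule and 2 that the table names otherwise (anac103 and NTL8). With GA3 at 5 min 5 of the 9 were higher and none lower (23.7% and 11% of all genes), led by anac103 at 1.27 and NTL8 at 1.12, while with eBL at 180 min 1 was higher and 5 were lower (16.2% and 21.8% of all genes). The gene anac103 acts in the unfolded protein response, and an anchor is not established for it. With GV at 5 min 4 were higher and none lower (7.82% and 3.16% of all genes), and at 180 min none was higher and 3 were lower (5.59% and 3.58%). With ZT at 30 min 4 were higher and 3 lower (19.1% and 19.5%). The lower genes at 180 min include NAC60 with both GV and eBL. Since the high control brought NAC60 into the test, its place in these counts is a description and supports nothing. NTL8, which regulates flowering and germination under salt stress, was higher with IAA at 180 min by 0.96 and lower with ZT and eBL at 180 min by log2 changes of -0.89 and -1.02. NTL8 averaged 0.731 FPKM over all libraries, so it met the minimum of 1 FPKM in some groups only, and its changes are a description.

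Of the vascular genes, 3 were tested of a list of 17 that the table held in full. NAC010 (SND3, AT1G28470, chr1:10010124-10012258, plus strand), which works below the master regulators of secondary walls, was higher than control in 7 comparisons and lower in none. GA3 libraries at 5 min read 4.42, 4.88 and 4.36 FPKM against 1.22, 1.27 and 1.29 FPKM in the controls, a log2 change of 1.30 ± 0.163 with no overlap (adjusted p = 1.49e-08). GV libraries at 180 min read 4.57, 4.72 and 6.34 FPKM against 2.74, 2.28 and 1.77 FPKM, a log2 change of 0.93 (adjusted p = 6.75e-05). ZT at 5 min raised it by 0.64 (adjusted p = 0.00212).

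IAA gave NAC010 a rise at each time, by 0.58, 0.55 and 0.46 (adjusted p = 0.0116, 0.0219 and 0.0423), with all IAA libraries above the controls. These calls were lost without IAA replicate 1 at 5 min (adjusted p = 0.0703), without control replicate 1 at 30 min (adjusted p = 0.105) and without control replicate 3 at 180 min (adjusted p = 0.225), and for the later times among others. The eBL change of 0.48 at 30 min fell to 0.37 without eBL replicate 3 (adjusted p = 0.0994). Set against the mean of ZT and GA3 it was 0.60 (adjusted p = 0.000665), and 0.49 without that library (adjusted p = 0.0174). The control mean rose from 1.26 FPKM at 5 min, the lowest of the 18 groups, to 2.46 FPKM at 30 min. The NAC010 rises at 5 min with GA3, ZT and IAA share those 3 low control libraries. All libraries of every compound at 5 min lay above them, also with GV and eBL, which gave no call. The vessel regulators NAC105 and NAC026 were called in 1 comparison each and are low. NAC105 (VND3) was higher with GV at 180 min by 0.52, lost without GV replicate 2 (adjusted p = 0.135), among others. NAC026 (VND5) met the minimum of 1 FPKM only with IAA and eBL at 30 min, at means of 1.56 and 1.26 FPKM beside 0.900 FPKM in the control, and its one call, with IAA at 30 min, is in a group that brought it into the test.

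Genes that act in xylem and secondary wall formation were counted as well. Of 8 listed, 5 were tested: the xylem proteases XCP1 and XCP2 and the secondary wall cellulose synthases CESA4, CESA7 and CESA8. With GA3 4 of the 5 were higher at 5 min and all 5 at 180 min (23.7% and 17.3% of all genes), where XCP2 was higher by 1.19 and the median change was 0.60. NAC010 was not called with GA3 at 180 min. With ZT at 5 min 3 were higher (19.5% of all genes), and with GV at 180 min 1 was (XCP2, by 0.51, beside 5.59% of all genes). With GV and IAA at 5 min 2 were higher (7.82% and 6.86% of all genes), and 1 (XCP1) was lower with ZT at 30 min (19.5%). CESA8 averaged 0.904 FPKM over all libraries, so it met the minimum of 1 FPKM in some groups only, and its place in these counts is a description.

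NAC079 (AT5G07680, chr5:2435795-2437661, plus strand) and NAC100 (AT5G61430, chr5:24701062-24702787, minus strand) carry the miR164 sites shown above and are 82.4% identical over 1078 bases. In the controls NAC079 rose and fell: the libraries read 4.54, 4.54 and 4.76 FPKM at 5 min, 6.28, 8.01 and 6.14 FPKM at 30 min and 4.33, 4.27 and 4.47 FPKM at 180 min. The log2 changes were 0.47 and -0.54 (adjusted p = 0.000476 and 0.000143). At 180 min all 5 compounds stood above the low control. GA3 was at 8.75, 7.62 and 9.47 FPKM, GV at 7.57, 6.53 and 8.58 FPKM and IAA at 6.64, 7.76 and 6.42 FPKM, with log2 changes of 0.84, 0.67 and 0.56 (SE 0.104, adjusted p = 1.23e-08, 9.37e-06 and 5.73e-05). ZT and eBL were above it by 0.41 and 0.42 (adjusted p = 0.00121 and 0.00122). These 5 comparisons share the 3 control libraries.

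At 5 min NAC079 was higher with GA3, at 7.87, 9.79 and 8.13 FPKM (log2 change 0.77, adjusted p = 8.19e-08), and with GV, at 7.16, 7.22 and 6.10 FPKM (log2 change 0.48, adjusted p = 0.00103). The eBL rise of 0.41 at 5 min was lost without eBL replicate 3 (adjusted p = 0.0939), among others. At 30 min, against the higher control, GA3 was lower by a log2 change of -0.33, which was lost without control replicate 2 (adjusted p = 0.151). Against the mean of ZT and eBL, GA3 was lower at 30 min by -0.27 (adjusted p = 0.0308) and higher at 180 min by 0.42 (adjusted p = 0.000294). ZT and eBL were not called at 180 min in that comparison (-0.22 and -0.21, adjusted p = 0.0539 and 0.1).

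NAC100 had its highest values with GA3 at 180 min, at 3.73, 3.06 and 3.89 FPKM against 1.68, 1.03 and 1.61 FPKM in the controls. No other group of the 18 reached a mean above 2.02 FPKM, and the log2 change was 0.91 ± 0.158 (adjusted p = 9.65e-06). The GA3 excess over the mean of ZT and eBL was 0.92 (adjusted p = 6.53e-07). The changes of 0.49 with GA3 at 5 min and 0.52 with IAA at 30 min were lost without control 5 min replicate 2 (adjusted p = 0.099) and without IAA replicate 1 (adjusted p = 0.19), each among others. NAC098 (CUC2), whose site has 3 mismatches, was called with eBL at 30 min alone (-0.51), in groups that overlapped, and not without eBL replicate 3 (-0.24, adjusted p = 0.36).

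NAC056 (AT3G15510, chr3:5243432-5245510, plus strand) and NAC018 act redundantly in the development of the seed coat. NAC056 was higher with IAA at 30 min, at 11.7, 12.6 and 12.3 FPKM against 8.65, 6.56 and 7.95 FPKM in the controls (log2 change 0.60 ± 0.118, adjusted p = 0.000274). At 180 min GA3 was highest, at 11.8, 10.8 and 10.2 FPKM against 5.26, 4.51 and 5.71 FPKM, a log2 change of 0.96 (adjusted p = 1.08e-08), and IAA, eBL and GV were higher by 0.59, 0.61 and 0.51 (adjusted p = 0.000173, 5.53e-05 and 0.00258). None of these groups overlapped the control, which had itself fallen from 30 min by a log2 change of -0.50 (adjusted p = 0.00163). At 180 min 52.5%, 38.9%, 53.5% and 31% of all genes did not overlap with GA3, IAA, eBL and GV. ZT at 30 min lowered NAC056 to 4.80, 4.97 and 5.37 FPKM (log2 change -0.52, adjusted p = 0.000443), and its rise of 0.36 at 180 min was lost without control replicate 2 (adjusted p = 0.0928). GA3 lowered it at 5 min by -0.44 (adjusted p = 0.00292). Compared within ZT, eBL and GA3, GA3 at 180 min was higher by 0.47 (adjusted p = 0.000337) and ZT lower by -0.73 at 30 min and -0.43 at 180 min (adjusted p = 1.92e-07 and 0.000755), while eBL at 180 min gave no call (-0.05, adjusted p = 0.81).

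NAC018 lies 6333 bases from NAC019 on the same strand. Among the compounds it was called with eBL at 180 min only (0.46, overlapping groups), and not without control replicate 2 (adjusted p = 0.249), among others. NAC035 (LOV1, AT2G02450, chr2:647538-650820, plus strand), a repressor of flowering that also acts in the cold response, was lower with GA3 at each time, by log2 changes of -0.35, -0.57 and -0.57. GA3 libraries at 30 min read 4.01, 3.46 and 5.36 FPKM against 6.998, 6.33 and 6.87 FPKM, and at 180 min 3.53, 3.15 and 3.66 FPKM against 5.36, 6.66 and 4.86 FPKM (adjusted p = 0.00062 and 0.000368). The groups did not overlap. The call at 5 min was lost without control replicate 2 (adjusted p = 0.135), among others.

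With eBL at 30 min NAC035 was at 3.04, 3.11 and 4.55 FPKM, a log2 change of -0.77 ± 0.128 (adjusted p = 4e-06), and -0.92 without eBL replicate 3. Against the mean of the other 2 of ZT, eBL and GA3, eBL at 30 min was lower by -0.53 (adjusted p = 0.000176, and -0.68 without eBL replicate 3) and GA3 at 180 min by -0.47 (adjusted p = 0.00105), while GA3 at 30 min gave no call (-0.21, adjusted p = 0.179). Calls with IAA (0.41) and ZT (-0.39) at 5 min were lost without control replicate 3 (adjusted p = 0.107) and without control replicate 2 (adjusted p = 0.104), each among others. NAC035 overlaps AT2G02455 on the opposite strand by 808 bases, and since the use of strand in counting is not stated, its reads and those of that gene cannot be told apart.

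**Figure D5:**
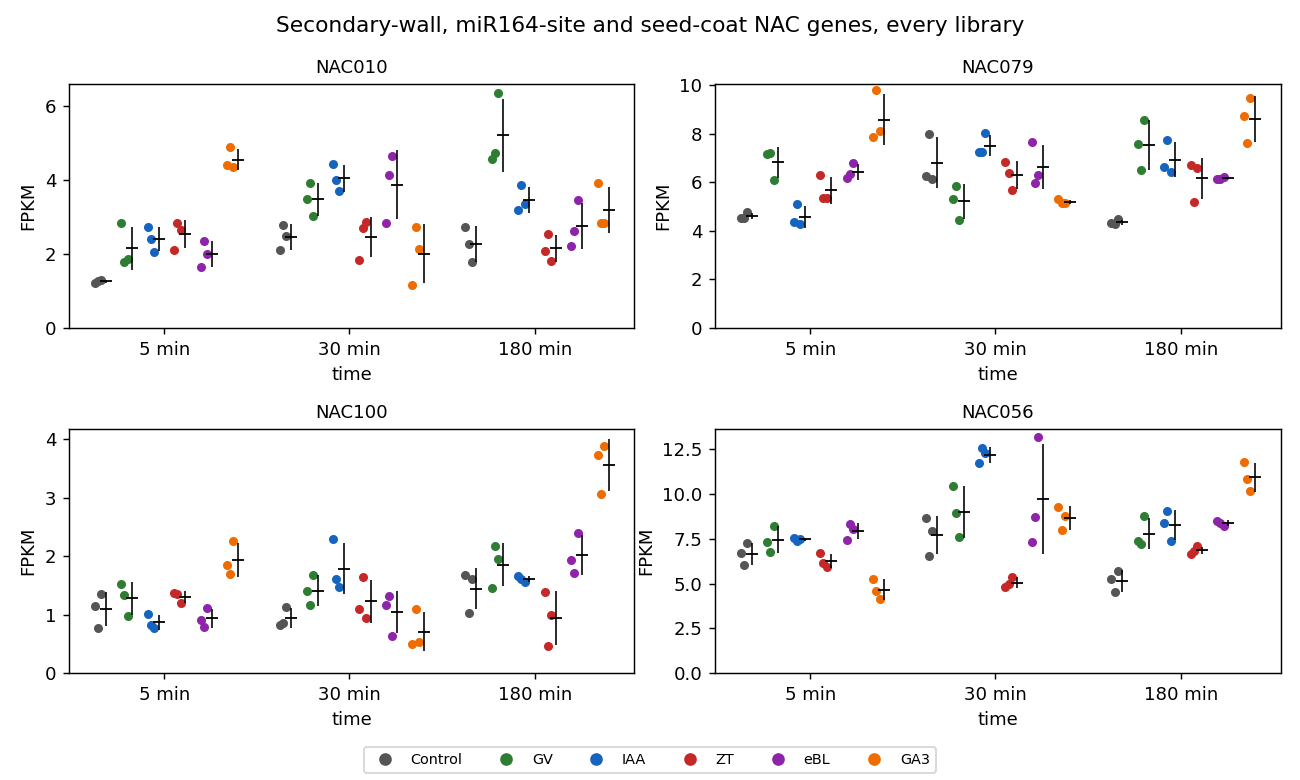
FPKM of NAC010, NAC079, NAC100 and NAC056 in all 54 libraries by time, coloured by compound, with black bars for the mean and SD of 3 libraries. GA3 libraries of NAC010 stand above the others at 5 min, and GA3 libraries of NAC079, NAC100 and NAC056 stand above the controls at 180 min, where NAC100 reaches 3.06 to 3.89 FPKM.

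Root genes were higher in several of these GA3 and eBL groups. Of 7 root markers listed, 5 were tested, and all 5 were higher with GA3 at 180 min (median 1.36, beside 17.3% of all genes higher). With GA3 at 5 min 4 were higher and 1 lower (23.7% and 11% of all genes), with eBL at 180 min 4 were higher (16.2%), and with ZT at 5 min 4 were lower (8.02%). With ZT at 30 min they split, PRP3, PRP1 and EXPA7 being higher and TIP2-3 and BGLU23 lower (19.1% and 19.5% of all genes). Leaving out BGLU23, whose level is far above the rest, the summed level of the other 4 was 18.8 to 22.4 FPKM with GA3 at 180 min, 15.4 to 18.9 FPKM with eBL at 180 min and 4.91 to 6.08 FPKM in the controls. At 5 min it was 25.5 to 26.2 FPKM with GA3, 2.65 to 3.17 FPKM with ZT and 7.88 to 10.3 FPKM in the controls. With BGLU23 included, the library that stood apart, eBL 30 min replicate 3, had a sum of 3437 FPKM beside a group median of 1595 FPKM. PRP1 was at 0 in 1 library and no other root marker was at 0 in any. PRP1 averaged 0.745 FPKM over all libraries, so it met the minimum of 1 FPKM in some groups only, and its place in these counts is a description. Of 5 green shoot markers tested of 6, 4 were lower with ZT, eBL and GA3 at 30 min (19.5%, 20.6% and 16.8% of all genes) and with IAA at 180 min (6.48%). The part of tissue composition in the NAC changes was not tested.

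Among compounds compared directly, each of 10 pairs at each time, 245 of 600 tests of the 20 genes were called, 72 at 5 min, 89 at 30 min and 84 at 180 min. All genes were called at 8.28% to 34% at 5 min, 14.2% to 44.6% at 30 min and 19.2% to 45.9% at 180 min, depending on the pair. NAC029 differed in 22 of 30 pairs and NAC019 in 21, while NAC018, NAC098 and NAC105 differed in 1 each. The widest contrast of NAC029 was ZT minus eBL at 30 min, at -2.15 (adjusted p = 6.98e-16, and -1.98 without eBL replicate 3), with means of 2.26 and 13.5 FPKM. Without that library 31 of the 42 calls in the 4 pairs with eBL at 30 min kept their direction and call. GV and IAA differed at 5 min for 8 NAC genes, 7 of them higher with GV (21.5% of all genes called), with NAC089 higher by 0.77 and ANAC13 by 0.57. At 30 min ZT and GA3 differed for 4 (18.9% of all genes), among them NAC019 by -1.23 and NAC029 by -1.28.

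In the untreated seedlings, 6 NAC genes differed between 30 and 5 min, 2 higher and 4 lower (17.3% and 14.1% of all genes, 31.4% in either direction), and 4 between 180 and 30 min, 1 higher and 3 lower (13.4% and 9.08% of all genes, 22.5% in either). NAC089 fell from 9.10 ± 0.347 to 6.49 ± 0.883 FPKM (SD, n = 3) and returned to 8.75 ± 0.464 FPKM, with log2 changes of -0.44 and 0.39 (adjusted p = 0.000745 and 0.00432 in limma). The return was lost without control 30 min replicate 1 (adjusted p = 0.052). NAC69 fell by 30 min with a log2 change of -0.41 (adjusted p = 0.00477), and NAC018 with -0.46, which was lost without control 5 min replicate 2 (adjusted p = 0.165), among others.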

How the data were processed

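The authors deposited 1 table of 54 libraries. Bowtie2 2.2.3 and the TAIR10 build are named in the submitters' processing notes, and the counter and its strand setting are not given there. The header names no unit, and the deposited values were identified as FPKM because each value times its gene length was a whole number of reads within 0.05 reads (100% of values). Of 24000 lines 3 were damaged and left out. Columns were matched to labels by compound, time and number, and the GV columns by elimination, on which all GV values depend.

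Genes with a group mean of at least 1 FPKM (10622) were tested with limma 3.58.1 in R 4.3.3 on log2(FPKM + 1), with trend and robust empirical Bayes, fitting a mean for each of 18 groups over all 54 libraries, with Benjamini-Hochberg adjusted p under 0.05 called. The steps were tested on simulated data. The table's coordinates of all 46 genes equal those of TAIR10.1. The members and lists were chosen with earlier results of these data known. Library values are given for up to 3 called genes each way per comparison with non-overlapping groups whose higher mean was 5 FPKM or more, ranked by log2 change, though not for every one. Other genes given in full were chosen after their values were seen. List examples are the called members with the largest change. Alternatives were a pseudocount of 0.1, no filter, quantile normalization, a replicate block, the compared groups alone and leaving out libraries. The comparison within ZT, eBL and GA3 was chosen after seeing the data.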

Additional observations from a re-analysis of the deposited data

Results flagged for a closer look

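Changes that differed between times within a compound, each tested as an interaction in limma over all genes, are given here as values. With GV 2 NAC genes differed between 30 and 5 min (10.5% of all genes called) and 2 between 180 and 30 min (4.75%), and NAC079 moved most, by -0.80 and then by 1.00. With IAA 1 gene differed in each step (8.62% and 9.26% of all genes), ANAC087 by 0.70 between 30 and 5 min and ANAC13 by 0.57 between 180 and 30 min. With ZT 8 and 3 genes differed (40.4% and 19.1% of all genes), led by NAC029 at -1.41 and NAC056 at 0.88. With eBL 8 and 6 differed (27.1% and 29.5% of all genes), led in both steps by NAC019, at 1.40 and -1.11. Without eBL 30 min replicate 3, 12 of these 14 kept their direction and call, and NAC019 was at 1.57 and -1.29. With GA3 11 and 5 differed (39.5% and 23.8% of all genes), again led by NAC019, at 2.36 and -1.95. Both steps use the control at 30 min, in which NAC019 was low and NAC079 high. NAC019 met the minimum of 1 FPKM in some groups only, so its values here are a description.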

How the results depend on the processing

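Of the 107 calls of NAC genes over the 17 comparisons, 61 held under every alternative and 0 changed sign. Calls kept were 104 with a pseudocount of 0.1, 98 without a filter, 97 after quantile normalization, 105 with the replicate block, 90 with the compared groups alone and 67 under every left-out library. For GV at 30 min the count of 1 became 2 after quantile normalization, 2 with the replicate block and 0 with the compared groups alone. The compared groups alone gave 3 for IAA at 30 min (5 in the full fit), 1 for eBL at 5 min (2) and 3 for eBL at 30 min (10), and eBL at 5 min had 1 without a filter and 1 after quantile normalization. Against the mean of the other 2 of ZT, eBL and GA3, eBL at 180 min had 5 (9 against control) and GA3 at 30 min 5 (8). With libraries left out in turn the counts ran from 0 to 3 for GV at 30 min, from 4 to 7 at 180 min, from 3 to 5 for IAA at 5 min, from 1 to 7 at 30 min, from 0 to 2 for eBL at 5 min, and from 29 to 59 for the 47 differences between times. GV at 30 min had 3 without eBL 30 min replicate 3. Whether the replicate numbers pair the samples is not stated. Deviations of same-numbered libraries of a compound and its control correlated at -0.0911 to 0.0735, with 0 of 45 over 0.1. Over all pairs of groups of a time the highest was 0.187 for the same number (180 min) and 0.146 for different numbers (30 min). These values cannot show how the samples were grown or handled. The replicate block ended 2 calls, NAC010 and NAC018 in the control between 30 and 5 min (adjusted p = 0.083 and 0.258 in limma). Low depth limits the genes near 1 FPKM, where 1 read in 1 kb is 0.0421 to 0.0562 FPKM.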

Other observations

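A family gene outside the naming rule fell further than any of the 20 tested genes did with a compound. This gene, anac044, which acts in the arrest of the cell cycle after DNA damage, had a mean of 6.91 FPKM in the control at 30 min and 6.69 FPKM at 180 min. At 30 min it was at 0.948 FPKM with eBL, 1.25 FPKM with ZT and 2.64 FPKM with GA3, log2 changes of -2.05, -1.82 and -1.12 (limma adjusted p = 1.83e-14, 7.26e-13 and 2.42e-07). Without eBL replicate 3 the eBL change was -1.84. At 180 min the changes were -1.68, -1.53 and -1.46. With GV it was lower at 180 min by -0.61 and with IAA at 5 min by -0.71 (adjusted p = 0.00676 and 0.00105). The 3 compounds with the larger falls are those whose libraries lie further from the control, and the part of that difference was not tested. SMB, a root cap regulator also outside the rule, was higher with GA3 and IAA at 180 min by 0.71 and 0.66.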
